A study of Mus musculus with 4 samples.

Results

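The genes described here are the components of Polycomb repressive complex 2 (PRC2), followed in mouse embryonic fibroblasts (MEFs) at low and high culture density. The members were the probes outside the control spots whose gene name in the scanner files was Ezh1, Ezh2, Eed, Suz12, Rbbp4, Rbbp7, Phf1, Mtf2, Phf19 or Jarid2. They came to 18 probes for 10 genes, of 41174 probes on the array. The cells were labelled Lats2-/- (KO) or Lats2+/+ (WT), all of strain C57BL/6J. Lats2 is a Hippo pathway kinase. RNA was taken after 48 h of culture, before confluence, for low density, and after 3 to 5 days for high density, so time in culture changed together with density. Each genotype was measured on 2 Agilent 2-colour arrays that carried its low and high density RNA with the dyes exchanged. Array 1 of each genotype held high density RNA in Cy5 and array 2 held it in Cy3. The labels do not say whether the arrays of a pair share one RNA extract. Each combination of genotype and density was taken here as 1 culture read in both dyes, and the spread between arrays or dyes given below was read as technical. The labels do not name the animals behind the cultures, and one label field spells the gene LAT2, while the genotype field, used here, has Lats2.

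PRC2 methylates a lysine in the tail of histone H3 and thereby marks genes for silencing. Its catalytic subunit is Ezh2 or its paralog Ezh1, which work only together with the core subunits Eed, a reader of the mark, and Suz12, the scaffold. The histone-binding proteins Rbbp4 and Rbbp7 belong to PRC2 and also to other chromatin complexes. Phf1, Mtf2 and Phf19 are the Polycomb-like proteins, which help to bring PRC2 to its sites, and Jarid2 is an accessory subunit of another form of the complex. In many tissues Ezh2 accompanies proliferation, whereas Ezh1 is found also in cells that have left the cell cycle.

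The sequences upstream of 4 genes are shown, because the catalytic pair moved in opposite directions with density and the core subunits Eed and Suz12 moved with Ezh2. They are the 250 bases before the RefSeq start in build GRCm38.p6, read 5′ to 3′ along the gene. The Ezh2 window is chr6:47595031-47595280 on the minus strand and the Ezh1 window is chr11:101226464-101226713 on the minus strand. The Eed window is chr7:89980977-89981226 on the minus strand and the Suz12 window is chr11:79992856-79993105 on the plus strand. Capitals mark matches to the motifs named after the sequences, and a match on the opposite strand appears as its reverse complement.
Ezh2: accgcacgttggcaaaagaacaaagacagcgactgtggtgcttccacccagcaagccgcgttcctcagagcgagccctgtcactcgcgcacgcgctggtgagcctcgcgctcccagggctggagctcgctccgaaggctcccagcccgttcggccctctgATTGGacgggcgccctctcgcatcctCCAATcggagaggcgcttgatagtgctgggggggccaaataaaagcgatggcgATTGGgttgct
Ezh1: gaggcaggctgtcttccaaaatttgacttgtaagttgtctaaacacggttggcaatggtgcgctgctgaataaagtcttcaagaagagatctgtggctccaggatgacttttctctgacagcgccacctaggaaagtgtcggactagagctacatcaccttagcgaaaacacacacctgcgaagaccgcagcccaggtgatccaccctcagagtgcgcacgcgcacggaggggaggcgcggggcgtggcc
Eed: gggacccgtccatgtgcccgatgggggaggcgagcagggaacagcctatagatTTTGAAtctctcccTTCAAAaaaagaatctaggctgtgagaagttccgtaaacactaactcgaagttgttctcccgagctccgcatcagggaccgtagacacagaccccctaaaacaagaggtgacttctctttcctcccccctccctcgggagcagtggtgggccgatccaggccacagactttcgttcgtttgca
Suz12: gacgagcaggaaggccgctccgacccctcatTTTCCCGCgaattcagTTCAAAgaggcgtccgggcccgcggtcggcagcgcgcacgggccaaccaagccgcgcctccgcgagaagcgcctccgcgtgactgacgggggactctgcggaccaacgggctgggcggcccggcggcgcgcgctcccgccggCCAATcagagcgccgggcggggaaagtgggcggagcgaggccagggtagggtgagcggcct

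Letters of 4 kinds were searched on both strands of the full windows, which reach from 250 bases before to 50 bases after the start. The E2F letters were TTTCGCGC, TTTGGCGC, TTTCCCGC and TTTGCCGC. The cell cycle homology region (CHR) was TTTGAA, the CCAAT box was CCAAT, and the letters for TEAD factors, through which the Hippo pathway acts, were GGAATG. None of the matches in the sequences above overlapped another. RefSeq listed 12 windows for the 10 genes, with 2 each for Mtf2 and Jarid2. E2F letters stood in 3 of the 12 windows, those of Ezh2, Suz12 and Phf19, beside 2.26% of all 32851 windows. In Ezh2 that match lay just after the start and so outside the bases shown. CHR letters stood in 3 windows, of Eed, Suz12 and the second start of Mtf2, beside 17.9% of all. CCAAT stood in 8 of the 12, beside 37.4% of all, and GGAATG stood in 0 of the 12, beside 14.7% of all. The windows of Ezh1, Phf1 and the first start of Mtf2 held none of these letters. A match is a description of the letters and does not show that a factor binds there.

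All 8 channels were well above background at 17 of the 18 probes. The exception was the Jarid2 probe at chr13:44895933-44895992 (A_52_P244712), which was above background in none and was not tested. Probe positions are those of the array design on build mm8 and were not set against the promoter windows, which use another build. Between 52.8% and 67.7% of features per channel were well above background and none was saturated. Over all probes tested, the log2 ratios of the 2 arrays correlated with r = 0.97 in WT and r = 0.91 in KO. Of the 7 fibroblast markers, 6 were well above background in every channel and Pdgfra in 7 channels. No channel was above background for the macrophage markers Emr1, Itgam and Ptprc, the endothelial markers Cdh5, Pecam1 and Tek, or the epithelial markers Cdh1, Krt8 and Tacstd1, whereas Cd68 was above it in 8 channels, Csf1r in 6, and Kdr and Krt18 in 2 each. Those 2 channels were both WT at low density, the culture in which Ezh2 was highest and Phf1 lowest. The log2 signal there was 6.57 and 6.76 for Kdr and 6.97 and 7.03 for Krt18, and their part in the values of that culture was not tested. The log2 of the summed signals of the fibroblast list lay between 17.68 and 19.18 in the 4 cultures and that of the macrophage list between 8.62 and 8.74. The brightest markers weigh most in such a sum, and 3 of the 5 macrophage markers were above background in no channel. Single fibroblast markers moved within the fibroblast sum. With density in WT 3 of 7 rose and 1 fell, beside 7.62% and 5.72% of all probes, with Col3a1 higher by 4.14 and Thy1 at -1.18, and in KO 4 rose, beside 5.9%, with Col3a1 higher by 3.44. The KO minus WT difference passed the rule upward for Col1a1 (1.66), Col1a2 (1.69) and Thy1 (1.5), beside 3.78% of all probes. It passed downward for Pdgfra, beside 4.22%, with no size given because 1 channel was not well above background. KO over WT, Pdgfra was higher at both densities and Thy1 at high density (1.38), beside 6.87% at low and 6.42% at high density. Pdgfra had a log2 signal of 6.59 at low density in WT and 11.05 in KO, and the part of these markers in the density and genotype differences was not tested.

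At 3 of 4 probes the targeted gene went against the genotype labels. These probes lie close together, at chr14:56644080-56644139, chr14:56644108-56644167 and chr14:56645246-56645305, and the first pair overlap. The brightest Lats2 probe had a log2 signal of 11.50 and 11.49 in WT at low density, 10.41 and 10.32 in WT at high density, 12.95 and 12.80 in KO at low density, and 11.85 and 11.86 in KO at high density. At low density, 3 Lats2 probes were brighter in KO, by 1.38, 1.39 and 1.19 on the log2 scale, and the remaining one, at chr14:56676512-56676571, was lower by a log2 difference of -0.63. At high density the same differences were 1.49, 1.33 and 0.91, and -1.26 for the remaining probe. The part of Lats2 that was deleted is not given in the sources used here, so it is unknown which of these probes can check the label. The study's supplement presents a western blot for Lats2 as its check of the knockout, in the direction of the labels, and the blot was not used here. The groups are therefore called by their labels, and each direction below is that of the libraries labelled KO against those labelled WT. Both WT arrays were on 1 slide and the KO arrays on others, so slide, scan and genotype cannot be told apart. The same holds for genotype and the culture that stands for it.

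With no replicate cultures, a probe was called when its mean log2 difference was at least 1 in size, or 2-fold, and both arrays (or both dyes) gave that sign. High against low density in WT, 3 of 17 member probes passed, which is 17.6%, beside 13.3% of the 22586 probes tested. Ezh1 and Phf1 were higher and Ezh2 was lower. In KO, 0 of 17 passed, beside 9.63% of 23590 probes. The KO effect minus the WT effect passed for 0 of 17, beside 8% of 21541 probes. For KO over WT at low density, 4 of 17 passed, which is 23.5%, beside 13.9% of 23336 probes, with Phf1 higher and Ezh2 and 2 Rbbp4 probes lower. At high density 2 of 17 passed, which is 11.8%, beside 13% of 23609 probes, and these were the same 2 Rbbp4 probes. With so few probes the shares were not read as a difference from the background, and what follows describes single genes.

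**Figure D1:**
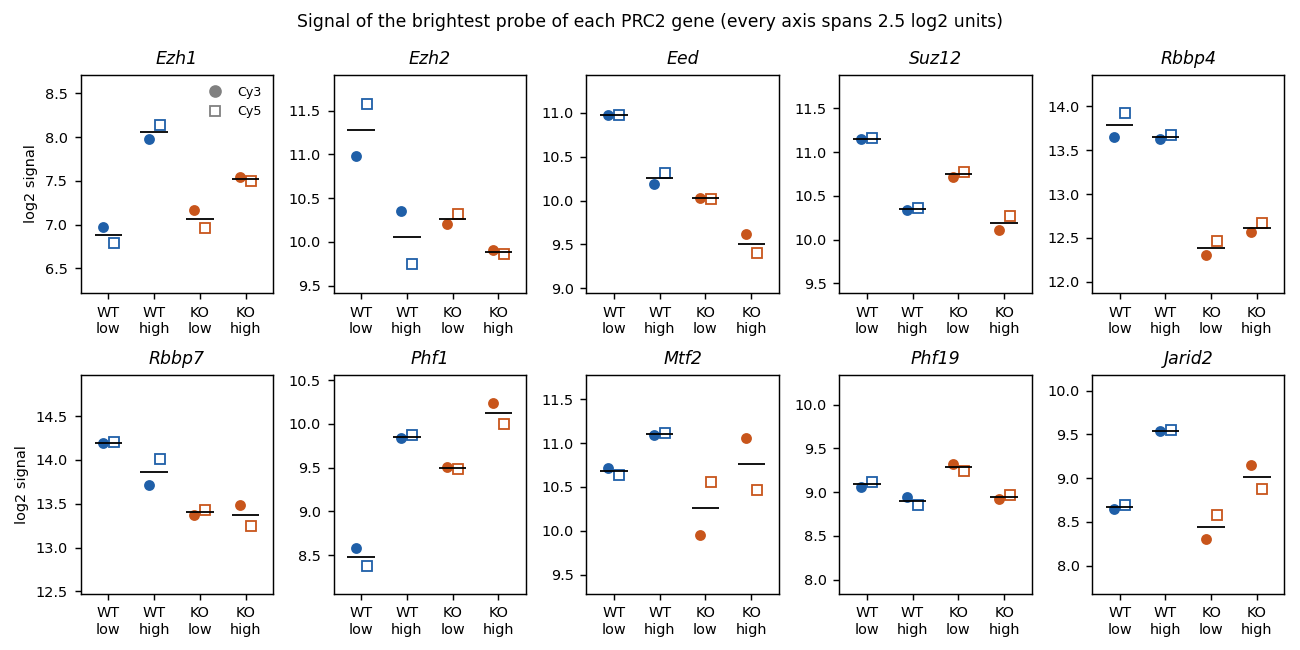
Log2 signal of the brightest probe of each PRC2 gene in the 4 cultures, with Cy3 as filled circles, Cy5 as open squares and the mean of both dyes as a bar, blue for WT and orange for KO. Every axis covers the same number of log2 units around its own centre, and levels of different genes cannot be compared. Ezh1 runs from 6.79 to 8.14 and is highest in WT at high density, while Ezh2 runs from 9.74 to 11.58 and is highest in WT at low density.

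The catalytic subunits were measured by 1 probe each. Ezh2, the main methyltransferase of dividing cells, had the probe A_51_P248067 at chr6:47461634-47462529. Its log2 signal was 10.98 (Cy3) and 11.58 (Cy5) in WT at low density and 10.36 and 9.74 in WT at high density. In KO it was 10.21 and 10.32 at low density and 9.91 and 9.86 at high density. WT at low density stood above the other 3 cultures. In KO low density stood above high density with no overlap, and the channels of WT at high density overlapped with both KO cultures. The log2 ratio of high over low density was -1.24 and -1.22 on the 2 WT arrays, a 2.35-fold lower signal with a mean of -1.23 ± 0.01 (SD of 2 arrays). In KO the ratios were -0.35 and -0.41, with a mean of -0.38 ± 0.04, which is 1.30-fold. The KO effect was thus smaller by 0.85 log2 units, with 0.89 and 0.81 in the 2 dye orientations. This difference exceeded the technical spread but missed the 2-fold rule. With median centring of each array the mean density ratio was -1.44 in WT and -0.59 in KO.

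Compared between genotypes, Ezh2 was 2.02-fold lower in KO at low density, with log2 differences of -0.78 in Cy3 and -1.26 in Cy5 and a mean of -1.02 ± 0.34 (SD of 2 dyes). At this margin the call depended on the setting, as the mean was -0.98 when all channels were quantile normalized and -0.72 when no normalization between arrays was used. In Cy3 alone the difference also missed the rule. At high density the differences had opposite signs, with -0.44 in Cy3 and 0.11 in Cy5, so no direction can be given. The spread at both densities lay between the WT arrays. WT array 2 read above WT array 1, with 11.58 against 10.98 at low and 10.36 against 9.74 at high density. The KO arrays were closer, with 10.32 against 10.21 and 9.91 against 9.86.

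Ezh1, the paralog with weaker methyltransferase activity, had the probe A_52_P237871 at chr11:101007913-101007972, which was dim. Its log2 signal was 6.97 and 6.79 in WT at low density, 7.98 and 8.14 in WT at high density, 7.17 and 6.96 in KO at low density, and 7.54 and 7.49 in KO at high density. Both high density cultures stood above both low density cultures with no overlap. The log2 ratio of high over low density was 1.17 and 1.19 in WT, a 2.27-fold higher signal, and 0.33 and 0.58 in KO, which is 1.37-fold. The KO effect was smaller by 0.84 and 0.61 log2 units in the 2 dye orientations. The constant of 50 intensity units added to every spot lowers the ratios of dim probes. Without it the mean ratio of Ezh1 came to 1.79 for WT and 0.66 for KO. The KO minus WT difference, -1.13, then passed the 2-fold rule. Between genotypes Ezh1 was slightly higher in KO at low density (0.19 in Cy3 and 0.17 in Cy5) and lower at high density (-0.44 and -0.65). The low density mean moved from 0.18 to 0.39 without the constant. The high density mean moved from -0.54 to -0.89 with the processed signals of the scanner software. Ezh1 was the only one of the 17 probes with opposite genotype differences at the 2 densities in both dyes.

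Ezh2 and Ezh1 thus moved apart with density in both genotypes. Within the same arrays, the density ratio of Ezh2 minus that of Ezh1 was -2.41 log2 units on both WT arrays (SD 0.004), a 5.32-fold shift of one gene against the other. In KO the shift was -0.68 and -0.99 (mean -0.83 ± 0.22), or 1.78-fold. The shift in KO was smaller by 1.73 and 1.42 log2 units in the 2 dye orientations, well beyond the spread between arrays, though with 1 culture per group this was not tested. The size of the WT shift depended on the background correction, with -3.05 when no constant was added and -3.21 with the processed signals of the scanner software. KO over WT at low density, Ezh2 was lower relative to Ezh1 by 0.97 in Cy3 and 1.43 in Cy5. At high density the same difference was -0.01 in Cy3 and 0.76 in Cy5, which did not hold across dyes. These are differences of changes and do not say which of the genes was more abundant.

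**Figure D2:**
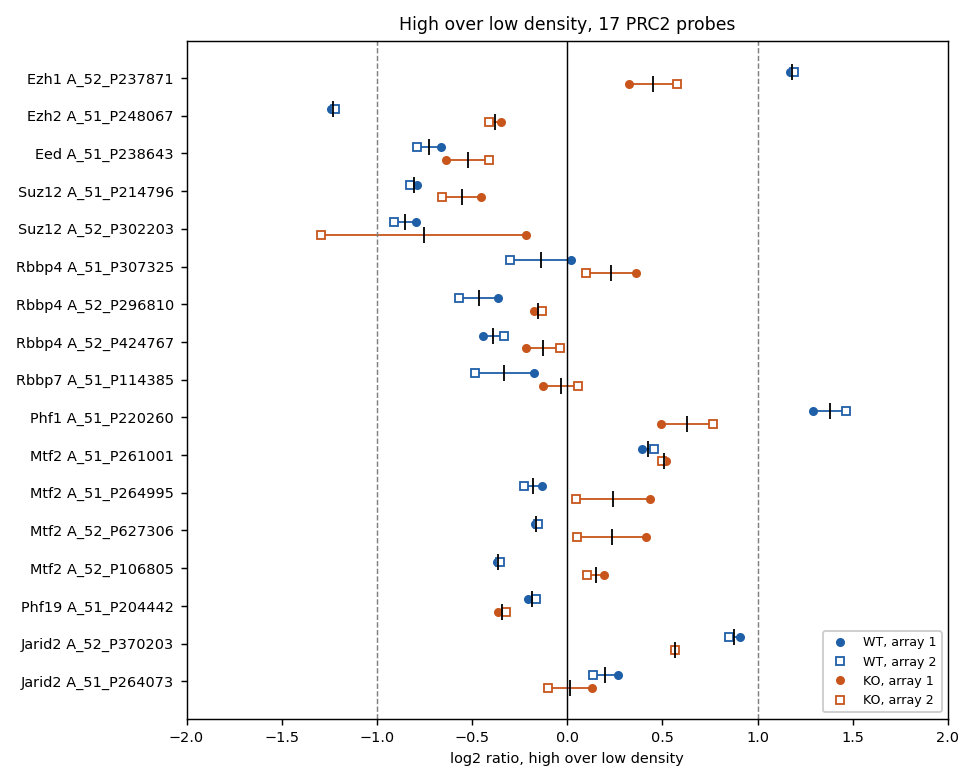
Log2 ratio of high over low density for the 17 member probes above background, with WT in blue, KO in orange, circles for array 1, squares for array 2, a line joining both and a tick at their mean. The dashed lines mark the 2-fold rule, which Ezh1 (1.18), Ezh2 (-1.23) and Phf1 (1.38) passed in WT and no probe passed in KO.

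The core subunits were lower at high density in both genotypes, by less than 2-fold in the setting used here. Eed, which binds the methylated histone, had the probe A_51_P238643 at chr7:89840003-89842912. Its log2 signal was 10.98 in both dyes in WT at low density and 10.19 and 10.32 at high density. In KO it was 10.03 and 10.02 at low density and 9.61 and 9.40 at high density. The 4 cultures did not overlap, and each step down, with density or with the KO label, exceeded the spread between dyes. The density ratio was -0.66 and -0.79 in WT and -0.64 and -0.41 in KO, which is 1.66-fold and 1.44-fold lower. Eed was lower in KO by 0.95 and 0.96 log2 units at low density, a 1.94-fold difference, and by 0.58 and 0.92 at high density. With the processed signals the low density difference was -1.18, which is past the rule.

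Suz12, which the catalytic subunit needs to be stable and active, had 2 probes. The brighter, A_51_P214796 at chr11:79849944-79850003, had a log2 signal of 11.15 and 11.16 in WT at low density and 10.34 and 10.36 at high density. In KO it was 10.72 and 10.77 at low density and 10.11 and 10.27 at high density. Low density stood above high density in both genotypes with no overlap. The density ratio was -0.79 and -0.82 in WT and -0.45 and -0.66 in KO. The dimmer probe, A_52_P302203 at chr11:79829671-79829730, gave a similar density ratio in WT, -0.80 and -0.91, whereas the KO arrays disagreed, with -0.21 on array 1 and -1.29 on array 2. With array 2 alone it would have been the only member past the rule in KO. Suz12 passed the rule in WT under 3 alternatives. The dimmer probe read -1.26 with the processed signals and -1.11 when no constant was added, and the brighter one -1.0 with median centring. The probes went in opposite directions between genotypes. KO over WT at low density was -0.41 at the brighter probe and 0.43 at the dimmer one, and at high density -0.16 and 0.53. No direction of the genotype difference can thus be given for Suz12.

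The histone-binding subunits differed by genotype label, and none of their density ratios reached 2-fold. Rbbp4, which is also a subunit of the chromatin assembly factor CAF-1 and of histone deacetylase complexes, had 3 probes. The brightest, A_51_P307325 at chr4:128811994-128812053, had a log2 signal of 13.65 and 13.92 in WT at low density and 13.62 and 13.67 at high density. In KO it was 12.31 and 12.47 at low density and 12.56 and 12.67 at high density. All KO channels were below all WT channels. KO over WT was -1.34 and -1.46 at low density, or 2.64-fold lower, and -1.06 and -1.0 at high density, or 2.04-fold lower. The probe A_52_P296810 at chr4:128825011-128825070 was 3.02-fold lower in KO at low density (-1.56 and -1.63) and 2.44-fold lower at high density (-1.20 and -1.37). The third probe, A_52_P424767 at chr4:128809683-128809742, was lower by 0.56 and 0.55 at low density and by 0.25 and 0.33 at high density. With the processed signals its means were -0.94 at low and -0.54 at high density. The direction was thus shared by the 3 probes and both dyes at both densities, and the size was not.

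The Rbbp4 calls held in each dye alone at both densities. Without normalization between arrays the median of all probes itself stood at 0.27 at both densities, and the brightest probe then read -0.76 at high density and missed the rule. The density ratios of Rbbp4 were -0.14, -0.46 and -0.39 in WT and 0.23, -0.15 and -0.13 in KO, from the brightest to the dimmest probe. The brightest probe had no settled direction in WT, with 0.02 and -0.30 on the 2 arrays. With median centring the probe A_52_P296810 read -0.65 in WT, and the brightest probe turned to -0.18 in KO.

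Rbbp7, the close paralog of Rbbp4, had the probe A_51_P114385 at chrX:158122533-158122592. Its log2 signal was 14.19 and 14.20 in WT at low density and 13.72 and 14.01 at high density, against 13.37 and 13.43 in KO at low density and 13.49 and 13.24 at high density. Here too all KO channels were below all WT channels. KO over WT was -0.82 and -0.77 at low density, which is 1.74-fold, and -0.23 and -0.77 at high density. The density ratio was -0.18 and -0.49 in WT, and in KO the arrays differed in sign, with -0.13 and 0.06. Median centring gave larger density ratios for Rbbp7, -0.59 in WT and -0.53 in KO.

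Among the Polycomb-like subunits, Phf1 moved most. Its probe A_51_P220260 at chr17:26665359-26665418 had a log2 signal of 8.58 and 8.38 in WT at low density and 9.84 and 9.87 at high density. In KO it was 9.50 and 9.48 at low density and 10.24 and 10.00 at high density. WT at low density stood below the other 3 cultures, and the groups did not overlap. The density ratio was 1.29 and 1.46 in WT, a 2.60-fold higher signal, and 0.49 and 0.77 in KO, which is 1.55-fold. The KO effect was smaller by 0.80 and 0.70 log2 units. KO over WT was 0.93 and 1.1 at low density, a 2.02-fold higher signal at the margin of the rule, and 0.40 and 0.13 at high density. With quantile normalization (0.99) and with the processed signals (0.97) the low density difference no longer passed 2-fold, and in Cy3 alone it did not pass either.

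Mtf2, a Polycomb-like protein that directs PRC2 to unmethylated CpG islands, had 4 probes that did not move alike. The probe A_51_P261001 at chr5:108349207-108349266 was higher at high density, with 0.39 and 0.45 in WT and 0.52 and 0.50 in KO. With median centring its WT mean fell from 0.42 to 0.22, and the mean of both genotypes from 0.47 to 0.24. The other 3 probes, between chr5:108321272-108321444 and chr5:108339454-108341139, were lower in WT, with mean ratios of -0.18, -0.16 and -0.36, and higher in KO, with 0.24, 0.23 and 0.15. These values were small, the largest being a 1.29-fold change. Under median centring in place of loess, 2 of the 3 KO means were at -0.01 and -0.002, so the higher signal in KO depended on the normalization. KO over WT at low density was between -0.51 and -0.39 over the 4 probes and lower in both dyes at each. At high density 3 probes were at 0.00 to 0.01 and the brightest was at -0.34, with -0.03 in Cy3 and -0.65 in Cy5. The brightest probe read lower on KO array 1 than on KO array 2, with 9.95 against 10.56 at low and 10.46 against 11.06 at high density.

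Phf19, the third Polycomb-like protein, had the probe A_51_P204442 at chr2:34716077-34716135. Its log2 signal stayed between 8.85 and 9.33 in all 8 channels, the narrowest range among the brightest probes of the 10 genes. The density ratio was -0.21 and -0.16 in WT and -0.36 and -0.32 in KO. KO over WT was 0.26 and 0.13 at low density. The dyes differed in sign at high density, with -0.03 and 0.11. With the processed signals the low density difference was -0.05, so its direction was not settled.

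Jarid2, which joins PRC2 in place of the Polycomb-like proteins and binds DNA, was measured by 2 probes above background. The brighter, A_52_P370203 at chr13:44931850-44931909, had a log2 signal of 8.64 and 8.69 in WT at low density and 9.54 and 9.55 at high density. In KO it was 8.31 and 8.58 at low density and 9.15 and 8.87 at high density. High density stood above low density in both genotypes with no overlap. The density ratio was 0.91 and 0.85 in WT, or 1.84-fold, and 0.56 and 0.57 in KO, or 1.48-fold. The dimmer probe, A_51_P264073 at chr13:44931008-44931067, followed in WT with 0.27 and 0.13 and had no settled direction in KO, with 0.13 and -0.10. KO over WT was negative at both probes in both dyes, with means of -0.22 and -0.23 at low density and -0.53 and -0.42 at high density. The low density means were -0.47 and -0.61 with the processed signals. Without normalization between arrays the brighter probe turned to 0.03 at low density, so its direction there depended on the normalization. At high density the dimmer probe read -1.05 with the processed signals, which is past the rule, and -0.88 when no constant was added.

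**Figure D3:**
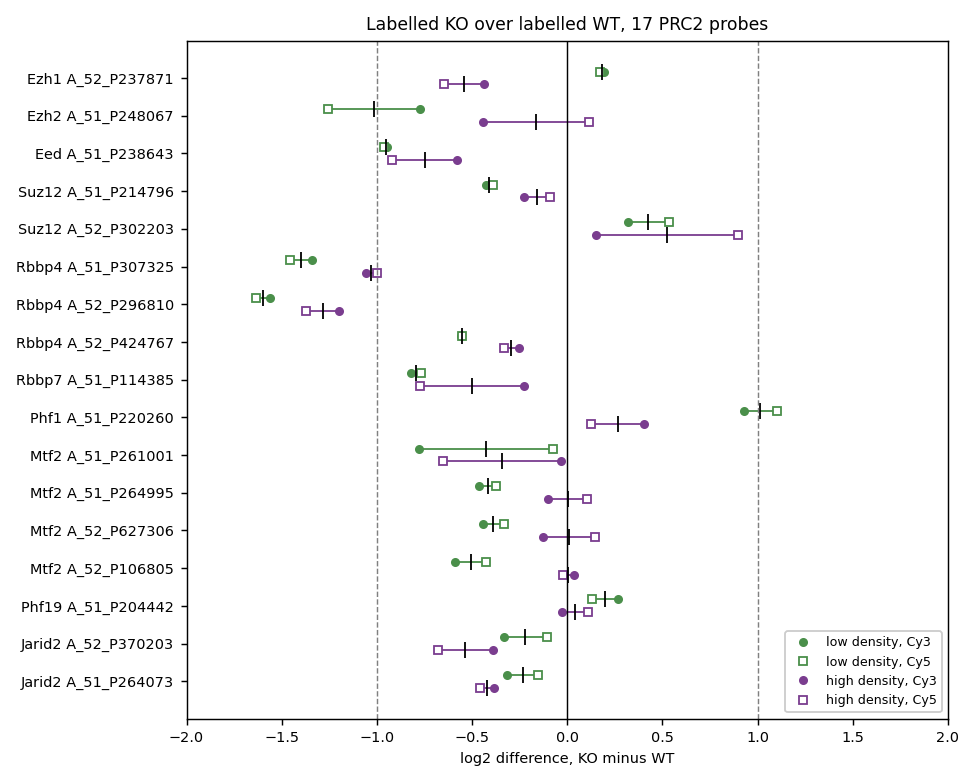
Log2 difference between the cultures labelled KO and WT for the 17 member probes, green for low and purple for high density, with circles for Cy3, squares for Cy5, a line joining both dyes and a tick at their mean. The dashed lines mark the 2-fold rule, which 2 Rbbp4 probes passed at both densities (-1.40 and -1.60 at low density) and Ezh2 and Phf1 passed at low density.

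Read across the members, the direction of the density effect was shared by all 4 arrays at 11 of 17 probes, 4 higher and 7 lower, which is 64.7%, beside 60.8% of the 21541 probes tested in both genotypes. The higher probes were those of Ezh1 and Phf1, the brightest of Mtf2 and the brighter of Jarid2. The lower ones were those of Ezh2, Eed, Suz12 and Phf19 and 2 of Rbbp4. The mean effect was larger in WT than in KO at 12 of 17 probes, which is 70.6%, beside 51.3% of all. KO over WT was lower in both dyes at both densities for 9 of 17 probes, which is 52.9%, beside 29.6% of 22350 probes, and higher for 2, which is 11.8%, beside 33.9%. The 9 probes belonged to 6 genes, namely Eed, Suz12, Rbbp4, Rbbp7, Mtf2 and Jarid2, with 1 of 2 Suz12 probes and 1 of 4 Mtf2 probes among them. The 2 higher probes were that of Phf1 and the dimmer one of Suz12. Probes of 1 gene are not independent. The median of the 17 probes was -0.19 for density in WT, 0.01 for density in KO, -0.42 for KO over WT at low density and -0.29 at high density, where the medians of all probes lay between 0.01 and 0.04.

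The density effect common to both genotypes was the one result with 2 cultures per group, and it was tested with limma on the mean ratio of each genotype. At each density these were 1 WT and 1 KO culture. The spread of the test, and so each SE, holds the genotype difference as well as that between cultures. No member and no other probe passed a Benjamini-Hochberg adjusted p of 0.05 (0% of 21541 probes, with a smallest adjusted p of 0.0668). At an unadjusted p under 0.05 there were 6391 probes, which is 29.7%, and 8 of the 17 members. These were the probes of Ezh1, Ezh2, Eed, Phf1 and both of Suz12, the brighter of Jarid2 and the brightest of Mtf2. The limma estimate for Phf1 was 1.0 ± 0.25 (SE, adjusted p = 0.105) and for Ezh1 0.82 ± 0.24 (adjusted p = 0.132). For Ezh2 it was -0.80 ± 0.27 (limma adjusted p = 0.15), for Eed -0.63 ± 0.17 (adjusted p = 0.117) and for the brighter Suz12 probe -0.68 ± 0.17 (adjusted p = 0.108). With the 4 arrays kept apart and the genotype as a random block, limma called 5536 probes, which is 25.7%, and 7 members, namely those 8 without the dimmer Suz12 probe. That fit takes part of its precision from arrays that were taken here as repeats of one culture.

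Ezh1 and Ezh2 were set against all other probes by the Pearson correlation of their log2 signals over the 8 channels, which are 4 cultures read in both dyes. The comparison was a description over 9216 probes that were above background throughout and ranged over at least 1 log2 unit. The genes most like Ezh1 were AK033971, Tnfsf13, Odz4, 2700046G09Rik and 2310002J21Rik, with r between 0.98 and 0.99. Among those most like Ezh2 were Ctnnd1, Mlf1ip, Tinf2 and Myom1, with r between 0.97 and 0.98. Their density ratios in WT and KO were -0.66 and -0.29 for Ctnnd1 and -1.12 and -0.32 for Mlf1ip, a centromere protein gene. They were -1.23 and -0.44 for Tinf2 and -1.21 and -0.22 for Myom1. Within the complex, by the brightest probe of each gene, Suz12 (r = 0.87) and Eed (r = 0.83) were the members most like Ezh2. Phf1 was the least like it (r = -0.94). Jarid2 (r = 0.89) and Phf1 (r = 0.73) were the most like Ezh1, and Ezh1 and Ezh2 themselves had r = -0.71. The dimmer probes of Suz12 and Jarid2 had no part in this ranking. Unlike Ezh2, the dimmer Suz12 probe was highest in KO at low density (8.77 and 9.15).

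Of 5 further genes of PRC2 and of histone demethylases that remove its mark, 1 passed the rule with density, beside 13.3% of all probes in WT and 9.63% in KO. Jmjd3 (Kdm6b), a demethylase, was higher at high density by a log2 ratio of 1.14 in WT and 1.09 in KO. E130012A19Rik (Epop), a PRC2 accessory protein, was lower in KO, with log2 differences of -1.32 at low and -1.38 at high density, beside 7.05% and 6.61% of all probes lower. Aebp2, Lcor and the demethylase Utx (Kdm6a) passed in no contrast.

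PRC1, the other main Polycomb complex, ubiquitinates histone H2A, and 18 of its genes were on the array. With density in WT, 1 of 16 tested genes rose, the chromobox gene Cbx6 (1.62), and 1 fell, Pcgf5 (-1.44), beside 7.62% and 5.72% of all probes. In KO 3 of 17 rose, Cbx6 (1.62), Rybp (1.59) and Cbx7 (1.06), and Pcgf5 fell (-1.47), beside 5.9% and 3.73% of all probes. The KO minus WT difference of the density effect passed the rule for Rybp (1.33), beside 3.78% of all probes higher. The median of the tested PRC1 genes was 0.24 in WT and 0.39 in KO. KO over WT at low density, Cbx2 (-1.39) and Phc2 (-1.27) were lower, beside 7.05% of all probes, and at high density Phc2 was lower (-1.18), beside 6.61%. Cbx7 was also past the rule, higher in KO at high density, beside 6.42% of all probes. It was well above background in the 4 KO channels and in no WT channel, so no size is given for it. The Ink4 genes, classical Polycomb targets, differed from each other. Cdkn2a rose with density in WT (1.64), beside 7.62% of all probes, and stood at 0.51 in KO. Its KO minus WT difference was -1.13, beside 4.22% lower, and at high density it was lower in KO (-1.32), beside 6.61%. Cdkn2b was higher in KO at both densities (2.22 and 1.85), beside 6.87% and 6.42% of all probes.

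Rbbp4 and Rbbp7 have partners outside PRC2, of which 10 were measured. With density in WT, Chaf1a (-1.60) and Chaf1b (-1.93), the large CAF-1 subunits, fell, beside 5.72% of all probes, and in KO Chaf1b fell (-1.04), beside 3.73%, while Chaf1a stood at -0.97. Of the 10, 3 were lower in KO at low density, Chaf1a (-1.17), Chaf1b (-1.38) and the corepressor scaffold Sin3a (-1.21), beside 7.05% of all probes. At high density 0 passed, beside 13% of all probes in either direction. The KO minus WT difference of the density effect passed for Sin3a (1.16), beside 3.78% of all probes higher. The histone deacetylase Hdac1 stood at -0.94 at both densities.

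E2F-regulated and mitotic genes mark dividing cells, and 24 of them were measured beside the members. With density in WT 22 of 24 fell, beside 5.72% of all probes, with a list median of -1.48. Ccnb2 (-0.26) and E2f1 (-0.40) did not pass. Among the 22 were Top2a (-2.0), Rrm2, Cdc2a (Cdk1, -1.81), Ccne1, Bub1, Mki67, Mcm2 to Mcm7, Aurkb, Ccna2, Pcna (-1.60), Cdc6, Birc5, Tyms, Plk1, Chek1 and Ccnb1 (-1.06), given without values where they lay between these. In KO 5 fell, beside 3.73% of all probes, with a median of -0.55. They were Rrm2 (-1.48), Mcm2 (-1.40), Mcm3, Cdc6 and Ccne1 (-1.03), and Mki67 stood at 0.20. The KO minus WT difference passed the rule upward for 10 of 24, beside 3.78% of all probes, with a median of 0.76. These were Top2a (1.84), Mki67, Ccna2, Aurkb, Cdc2a, Plk1, Mcm7, Bub1, Birc5 and Pcna (1.0). KO over WT at low density, 14 were lower, beside 7.05% of all probes, with a list median of -1.09. Rrm2 was higher (1.24), beside 6.87%. Among the 14 were Mcm4 (-1.77), Mcm7, Mki67, Ccne1, Mcm6, Mcm5, Cdc2a, Ccna2, Pcna, Cdc6, Mcm2, Top2a and Plk1 (-1.06). At high density Rrm2 was higher (1.65) and Mcm2 lower (-1.15), beside 6.42% and 6.61% of all probes, and the list median was -0.17. Ezh2 took values of the same sign as the median of this list in these contrasts, as its own values were -1.23, -0.38, 0.85, -1.02 and -0.17 in the same order, the last of them with opposite signs in the 2 dyes. The part of the proliferating fraction in the Ezh2 values was not tested. Because these are bulk cultures, fewer cells with a transcript and less of it per cell cannot be told apart.

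**Figure D4:**
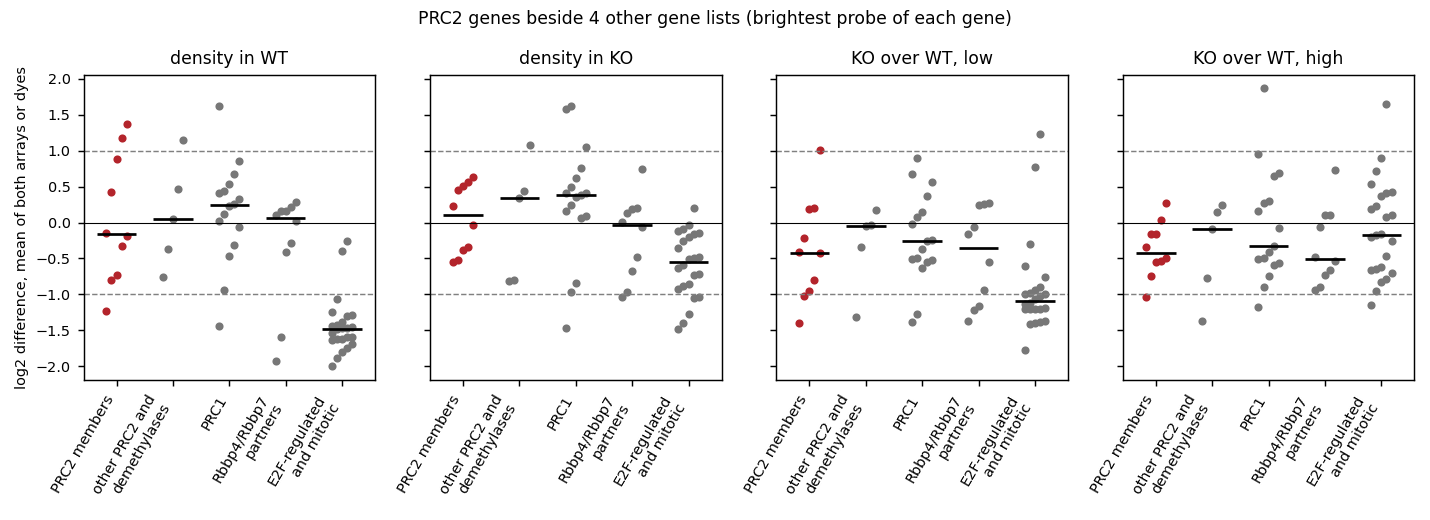
Log2 differences of the 10 PRC2 genes (red) beside 4 other gene lists (grey) in 4 contrasts, each point the brightest probe of a gene above background as the mean of both arrays or dyes, each bar a list median, and dashed lines at 2-fold. The E2F-regulated and mitotic genes lie low as a list in WT (median -1.48), while the PRC2 genes spread on both sides of 0 (-1.23 to 1.38).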

How the data were processed

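RNA of 4 cultures was measured on 4 arrays. Per the file headers, the authors extracted them with Agilent Feature Extraction 10.5.1.1, and the deposited scanner files give Cy3 and Cy5 signal intensity, raw and processed, a log10 ratio of processed signals and quality flags. The deposited series matrix held the same log10 ratio turned to high over low density (all 45018 features within 0.6%). Raw mean intensity was corrected with normexp (offset 50) on the local background and loess-normalized within arrays in limma 3.58.1 (R 4.3.3), flagged features were left out and features of a probe were averaged. Genotypes were compared within a dye on single channels after Aquantile. A probe was tested in a contrast if well above background in both channels of at least 1 group. All member probes are given, and a gene with several is represented by its brightest. Members of the other lists are named where they passed 2-fold in a contrast described. Of the genes named by these rules and the 5 most like Ezh2, 2 are not reported here. Members and lists were chosen with earlier results of these data known. Groups of 1 culture received no p-value, so the t-test of the study's methods was not run. Alternatives were other background corrections, normalizations, filters and thresholds. The pipeline was tested on simulated data. The number of arrays limits the precision. Promoters came from RefSeq, build GRCm38.p6, with all 10 symbols matched.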

Additional observations from a re-analysis of the deposited data

Results flagged for a closer look

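At 3 Mtf2 probes both WT arrays gave a lower and both KO arrays a higher signal at high density. The KO minus WT difference was 0.42 at A_51_P264995, 0.40 at A_52_P627306 and 0.51 at A_52_P106805, and the brightest Mtf2 probe did not share it. At Ezh1 the genotype difference was positive in both dyes at low density and negative in both at high density, and the step from low to high density was -0.73. None of these 4 differences was tested, since each group was 1 culture.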

How the results depend on the processing

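Over the 595 values of single member probes under the alternatives, 572 kept their direction and 23 turned it, none of them at a called value, and the largest mean that turned was 0.24 in size. Leaving out 1 array or dye, the WT density count stayed at 3, the KO count was 0 to 1, the KO minus WT count stayed at 0, the low density count was 2 to 4 and the high density count stayed at 2. Ezh2 minus Ezh1 then stayed at -2.41 in WT and ranged from -0.99 to -0.68 in KO, -1.43 to -0.97 at low density and -0.01 to 0.76 at high density. At 1.4-fold the members past the rule were 7 for density in WT, 6 in KO, 4 for KO minus WT, 8 at low and 7 at high density, beside 38%, 34.6%, 28.4%, 40.2% and 37.6% of all probes. With processed signals and with offset 0 the KO minus WT count was 1 (Ezh1). Quantile normalization gave 2 at low density, and no normalization between arrays gave 1 at high density. Ezh2 minus Ezh1 in WT was -3.21 with processed signals, -3.05 with offset 0 and -2.61 with median centring, in KO -1.14 with processed signals and -1.07 with median centring, and at low density -1.53 with processed signals. The limma test of the common density effect called 7 members with the genotype as a random block and 0 under the other alternatives. Over all probes it called 0 in the main setting, 300 with processed signals, 355 with offset 0, 3 with median centring, 195 with every channel above background and 5536 with the random block. Counts over all probes with processed signals were 5826 for density in WT against 3012, 4865 in KO against 2271, 3148 for KO minus WT against 1724, 6508 against 3249 at low and 6030 against 3076 at high density, and with offset 0 they were 4805, 3862, 2588, 5274 and 4937. The causes of these moves were not tested. No paired analysis was possible because replicate numbers name dye orientations, not cultures, beyond the limma test above, which pairs the densities within each genotype, and a block for slide could not be fitted. The dimmer Jarid2 probe moved from -0.42 to -1.05 at high density with processed signals. Between arrays or dyes, the dimmer Suz12 probe had the largest SD among the member probes (0.76, density in KO).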
